A study of Homo sapiens with 6 samples.

Results

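The 3p arms of the human miRNAs numbered from miR-6720 to miR-6895 were examined in Panc-1, a cell line that was established from a pancreatic ductal adenocarcinoma. The members were the array probes named hsa-miR-N-3p with a whole number N in that range, which gave 166 of the 2565 miRNA probes of the array. Of 6 arrays, 3 held RNA of control cells without TGF-β and 3 held RNA of cells exposed to TGF-β (10 ng/mL) over 72 h. TGF-β is a secreted cytokine that induces epithelial-mesenchymal transition (EMT) in pancreatic cancer cells, and the comparison asks which miRNAs differ after this treatment. Both groups came from 1 cell line and were labelled with 1 dye (Cy5), and nothing in the labels says whether the 3 samples of a group were separate cultures. The study's methods speak of independent experiments in general and do not name the arrays. Where the samples were not separate cultures, the p-values below measure only the spread between these samples, which may be technical. The control arrays were on one slide and the TGF-β arrays on the other, and the effects of slide and of treatment cannot be told apart. Each array measured the RNA of many cells, in which fewer cells with a miRNA and less of it per cell cannot be told apart either.

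Mirtrons are short introns that are spliced out of a host transcript, debranched and folded into a hairpin, which Dicer then cuts, so that the Drosha step of miRNA processing is bypassed. The 3p arm of a mirtron comes from the 3′ end of the intron, where the pyrimidine-rich tract and the AG of the splice acceptor lie. The mature strand pairs with target mRNAs mainly through its seed, the bases at positions 2 to 8. The numbers examined here were given in a range that is rich in such intron-derived miRNAs, and being in the range does not by itself show that a miRNA is a mirtron.

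A mature sequence was listed in RefSeq (GRCh38.p14) for 147 of the 166 members, and both the mature and the hairpin sequence for 136. Of the 147 mature 3p arms, 112 (76.2%) ended in AG and 98 (66.7%) in CAG. The corresponding shares were 7.87% and 3.42% among the other 2223 mature miRNAs of the table, and 11% and 6.52% among the other 675 of its 3p arms. The end of the 3p arm was also the end of the annotated hairpin for 103 of the 136 (75.7%), and 130 of the 136 hairpins (95.6%) ended in AG, compared with 8.94% of the other 1420 hairpins. The 3p arms held 43.7% cytosine, 27.9% uracil, 16.4% guanine and 12% adenine, whereas the 5p arms of the same range held 47.1% guanine and 15.3% cytosine. They were 17 to 24 bases long, with a median of 21. All 147 lay inside the interval of another annotated gene. For 127 of them a host was on the same strand, which was a protein-coding gene for 125, and for the remaining 20 the strand of the host was not listed. The table gives gene intervals only, so exons and introns were not distinguished.

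The 8 brightest members are shown because the levels reported below turn on them. The seed is in capitals and the sequences read from 5′ to 3′.
miR-6765-3p: uCACCUGGcuggcccgcccag
miR-6840-3p: gCCCAGGAcuuugugcggggug
miR-6766-3p: uGAUUGUCuucccccacccuca
miR-6805-3p: uUGCUCUGcucccccgcccccag
miR-6729-3p: uCAUCCCCcucgcccucucag
miR-6763-3p: cUCCCCGGccucugcccccag
miR-6872-3p: cCCAUGCCuccugccgcgguc
miR-6816-3p: gAAGGACCugcaccuucg
Of these 8, miR-6765-3p, miR-6805-3p, miR-6729-3p and miR-6763-3p ended in CAG at the last base of their hairpin, and the other 4 did not end in AG. miR-6765-3p (chr14:105150778-105150798, minus strand) lies within JAG2, which encodes a Notch ligand. miR-6766-3p (chr15:89326742-89326763, minus strand) lies within POLG, the gene of the mitochondrial DNA polymerase, and miR-6805-3p (chr19:55388220-55388242, plus strand) within RPL28, the gene of a ribosomal protein. miR-6840-3p (chr7:100356696-100356717, plus strand) lies within a readthrough locus, STAG3L5P-PVRIG2P-PILRB, and its hairpin did not end in AG. miR-6872-3p (chr3:50273275-50273295, plus strand) lies within SEMA3B, the gene of a secreted semaphorin. miR-6729-3p (chr1:12029202-12029222, plus strand) lies within MIIP and miR-6763-3p (chr12:132582041-132582061, plus strand) within FBRSL1. miR-6816-3p (chr22:20114693-20114710, minus strand) lies in the interval of TRMT2A, for which no strand was listed.

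Next are 5 of the 6 members with the largest differences, 3 in each direction, among those detected on all arrays whose control and TGF-β values did not overlap. They are shown because the comparison of TGF-β with control describes them. The remaining one, miR-6848-3p, is named only.
miR-6804-3p: cGCACCUGccucucacccacag
miR-6825-3p: gCGCUGACccgccuucuccgca
miR-6786-3p: uGACGCCCcuucugauucugccu
miR-6797-3p: uGCAUGACccuucccuccccac
miR-6727-3p: uCCUGCCAccuccuccgcag
Their hosts were PPP6R1 for miR-6804-3p (chr19:55230885-55230906, minus strand), TPRA1 for miR-6825-3p (chr3:127575267-127575288, minus strand), HGS for miR-6786-3p (chr17:81693844-81693866, plus strand), RPS19 for miR-6797-3p (chr19:41869675-41869696, plus strand) and INTS11 for miR-6727-3p (chr1:1312502-1312521, minus strand). None of the 5 seeds was shared with another member. Among all 147 members there were 142 different seeds, and 5 seeds were shared by a pair of members each. These pairs were miR-6801-3p with miR-6810-3p, miR-6819-3p with miR-6877-3p, miR-6784-3p with miR-6862-3p, miR-6791-3p with miR-6829-3p, and miR-6764-3p with miR-6824-3p. Outside the members, the seed of miR-6766-3p was also that of miR-219a-5p and miR-4782-3p, the seed of miR-6727-3p was that of miR-4722-3p, that of miR-6797-3p was shared with miR-6076 and that of miR-6805-3p with miR-5691.

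Detection was read against the 320 blank spots of each array. A miRNA counted as detected where its spot exceeded the mean of the blank spots, after the brightest and the dimmest 5% had been set aside, by 2 SD. The limits were 19.5 to 22.8 intensity units, and 5.63% to 7.81% of the blank spots themselves lay above them. The control arrays detected 117, 121 and 122 of the 166 members, and the TGF-β arrays 117, 134 and 118. This was 70.5% to 80.7% of the members, compared with 59.7% to 69.7% of all miRNA probes and 83.3% to 92.9% of the 168 5p arms of the same range. The order of the 3 shares was the same on every array, and the detection shares of control and TGF-β arrays overlapped. TGF-β replicate 2 gave the highest count for the members and also for the whole array (1787, against 1531 to 1604 on the other arrays), and its blank spots had the smallest SD (0.528, against 0.622 to 0.768 units). Without that array 115 members were detected on every remaining array of either group, compared with 113 with it.

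**Figure D1:**
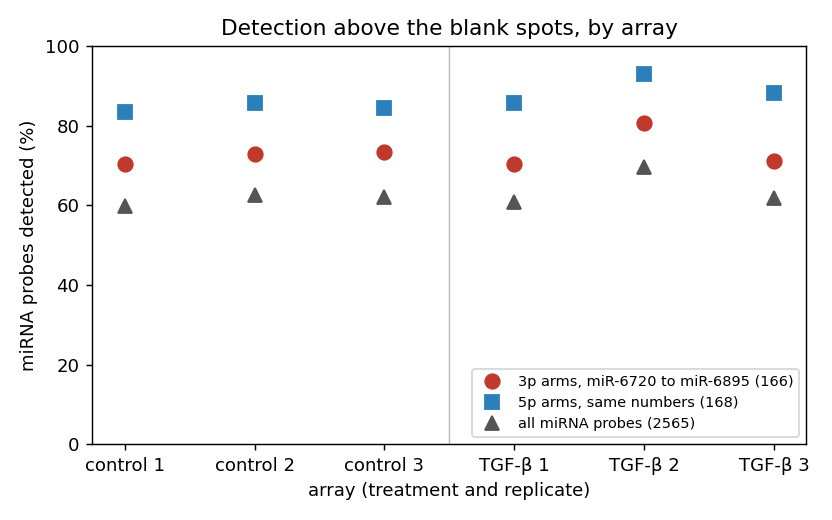
Share of miRNA probes detected on each array (%), for the 166 3p arms of the range (circles), the 168 5p arms (squares) and all 2565 miRNA probes (triangles). On every array the 3p arms lie above all probes and below the 5p arms, and TGF-β replicate 2 is the highest array for each set.

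Over the 6 arrays, 97 members (58.4%) were detected on all of them, 49 on 1 to 5 arrays and 20 on none, whereas 1282 of the 2565 miRNA probes were detected on all arrays and 522 on none. The members just inside the limit were miR-6741-3p, miR-6753-3p and miR-6849-3p, whose lowest values were 2.05, 2.06 and 2.17 blank SDs above the blank mean. Among the members never detected, miR-6774-3p came nearest to the limit, with 1.99 blank SDs on its highest array. The other members never detected were miR-6720-3p, miR-6755-3p, miR-6758-3p, miR-6764-3p, miR-6767-3p, miR-6768-3p, miR-6781-3p, miR-6806-3p, miR-6814-3p, miR-6828-3p, miR-6830-3p, miR-6837-3p, miR-6839-3p, miR-6842-3p, miR-6853-3p, miR-6854-3p, miR-6856-3p, miR-6874-3p and miR-6888-3p. As reference mirtrons, 22 probes were taken, the arms of miR-877, miR-1224 to miR-1229, miR-1233 and miR-1236 to miR-1238. How each of these is processed was not examined. Of the 22, 19 (86.4%) were detected on all arrays and 0 on none. For 165 precursors both arms were on the array. Both were detected on all arrays for 83, only the 5p arm for 40, only the 3p arm for 14 and neither for 28. In 13 precursors the 3p arm was never detected and the 5p arm was detected on every array, and the reverse was found for 1.

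The cytosine content of the 3p arm went with its detection. When the 147 members with a sequence were ordered by their share of cytosine, 13 of the 49 in the lowest part (18.2% to 40% cytosine) were detected on all arrays, 28 of the 49 in the middle and 45 of the 49 in the highest (50% to 61.9%). The numbers never detected were 16, 3 and 0. Across the members, the Spearman correlation of cytosine content with the mean log2 intensity was 0.584, and that of total guanine and cytosine was 0.591 (n = 147). Across the 2103 other miRNAs with a sequence the corresponding values were 0.0916 and 0.436. These are descriptions over probes that share the 6 arrays, and brightness of different probes also depends on how each probe binds and how each miRNA takes up the label. Among the 86 members with a sequence that were detected on all arrays, the correlation with cytosine content was 0.196. With total guanine and cytosine it was 0.322. Members ending in AG were detected on all arrays in 61 of 112 cases (54.5%) and the others in 25 of 35 (71.4%).

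**Figure D2:**
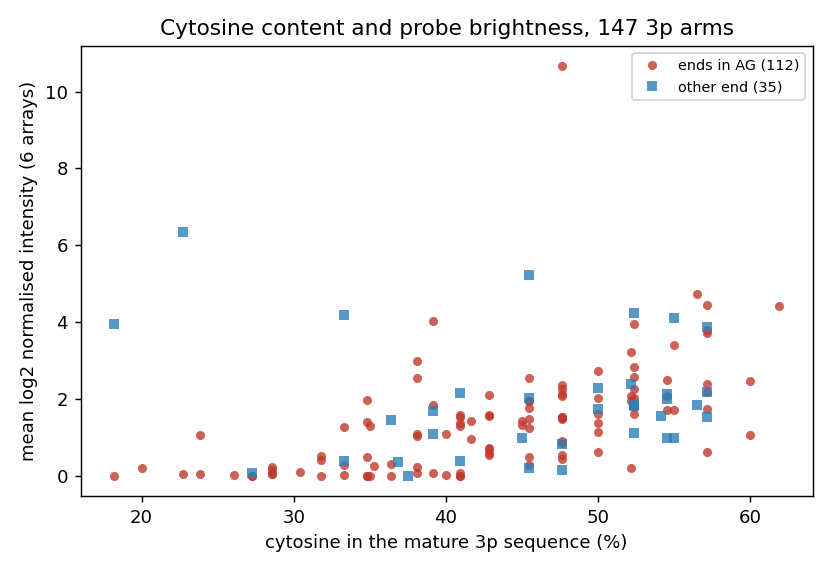
Share of cytosine in the mature 3p sequence (%) against the mean log2 normalised intensity over 6 arrays, for 147 members, with circles for those ending in AG (112) and squares for the others (35). Of the 49 members with the least cytosine 13 were detected on all arrays, and miR-6765-3p stands alone at 10.7.

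The members were of middling brightness among the probes of the array. Ranked by signal among all 2565 miRNA probes, their median percentile was 51.4 to 54.0 on the 6 arrays, compared with 64.9 to 67.9 for the 5p arms. Only 16 or 17 of the 166 (9.64% to 10.2%) were above the 75th percentile of the array, and 12.7% to 16.9% were at or below the 25th. By the median percentile over arrays, 70 members lay between the 40th and the 60th percentile, 39 between the 60th and the 80th and 10 above the 80th. The median member gave a signal 3.67 to 5.89 blank SDs above the blank mean. The numbers of members more than 10 blank SDs above it were 21, 20 and 23 without TGF-β and 19, 32 and 22 with it, the highest again on TGF-β replicate 2.

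**Figure D3:**
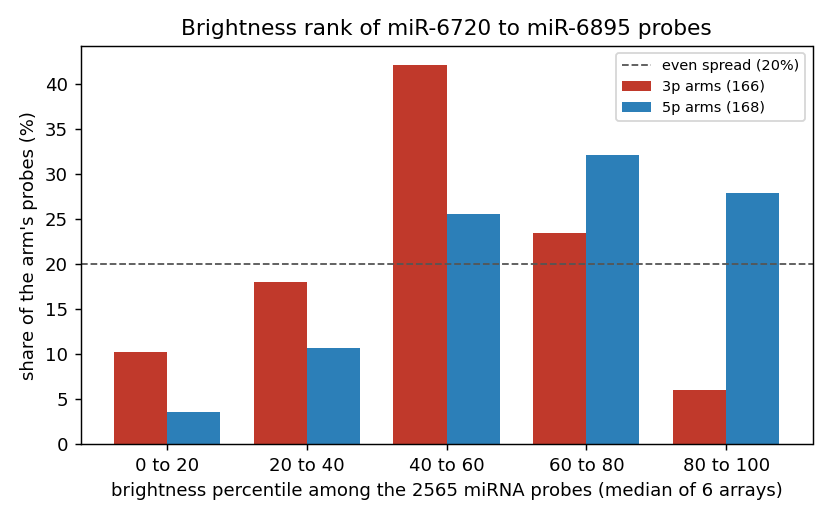
Share of the 166 3p arms and of the 168 5p arms (%) in each of 5 bands of equal width of the brightness percentile among all miRNA probes, by the median over 6 arrays, with an even spread as the dashed line. The 3p arms are most frequent in the middle band (42.2%), with 6.02% in the brightest band, compared with 28.0% of the 5p arms.

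One member was far brighter than the rest. The normalised intensity, which is the signal above the blank mean after quantile normalisation between arrays, was 1635, 1635 and 1669 for miR-6765-3p in the control group and 1465, 1755 and 1528 after TGF-β. It lay between the 98.5th and the 98.9th percentile of the array, and the groups overlapped. miR-6840-3p followed, with 79.5, 80.7 and 79.98 without TGF-β and 88.9, 77.1 and 81.3 with it. The third, miR-6766-3p, gave 41.5, 37.1 and 35.7 without TGF-β and 39.6, 36.4 and 34.0 with it. The remaining 5 of the 8 brightest had group means of 17.1 to 29.6 and percentiles of 79.3 to 86.0. miR-6765-3p was the only member above 100 on every array. Of the 97 members detected on all arrays, 79 had a mean log2 intensity under 3. The brightness of different probes is not a measure of relative RNA amounts.

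With the blank spots as background, the correlation between arrays was lower for the members than for the array as a whole. Over the 97 members detected on all arrays, the Pearson correlation of log2 values was 0.933 to 0.975 for the 15 pairs of arrays, and the Spearman correlation was 0.756 to 0.898. Over all 1282 miRNAs detected on all arrays they were 0.984 to 0.992 and 0.959 to 0.976, and over the 126 5p arms 0.974 to 0.986 and 0.959 to 0.977. The Pearson values of the members rested in part on miR-6765-3p, and without it they were 0.889 to 0.960. Over 947 other miRNAs within the brightness range of the remaining members, the Pearson values were 0.942 to 0.967 and the Spearman values 0.932 to 0.960. These were matched by range only, and 79 of the 97 members had a mean log2 intensity under 3. A correlation over probes also depends on how widely their brightness spreads, and its part here was not tested. Within each band of brightness given below, the median SD of the members was not above that of the other miRNAs. Over the 97 members, the 6 pairs within a group gave Pearson values of 0.945 to 0.965. The 9 pairs between groups gave 0.933 to 0.975, so that the ranges overlapped. From its lowest to its highest array, the median member moved by 8.65 percentiles of the array, against 4.37 for all detected miRNAs.

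The SD of log2 values within groups had a median of 0.230 over the 97 members detected on all arrays, compared with 0.186 over all miRNAs detected on all arrays. It was smaller in brighter members. Where the mean log2 intensity was 1 to 2, the median SD was 0.292 for 47 members and 0.338 for 236 other miRNAs, and where it was 2 to 3 it was 0.214 for 29 members and 0.234 for 255 others. Between 3 and 4 it was 0.118 for 8 members and 0.169 for 182 others. The 10 members above 4 had a median SD of 0.115, and the 501 others above 4 one of 0.117. Among these 97, the smallest SDs were those of miR-6776-3p (0.0387), miR-6728-3p (0.0604) and miR-6840-3p (0.0741). miR-6776-3p, within CLUH, gave 9.43, 9.53 and 9.71 without TGF-β and 8.91, 9.53 and 9.06 with it. The largest among them were those of miR-6790-3p (0.662), miR-6736-3p (0.639) and miR-6793-3p (0.622). miR-6790-3p gave 6.73, 4.02 and 1.92 without TGF-β and 3.99, 3.57 and 2.93 with it. miR-6736-3p gave 6.62, 2.83 and 2.13 without TGF-β and 2.59, 1.84 and 2.69 with it. In both, control replicate 1 was the highest of the 6 arrays.

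The comparison of TGF-β with control was fitted with limma over 1457 miRNAs, a miRNA being tested if all 3 arrays of either group detected it, which included 113 of the 166 members. Of these 113, 97 were detected on all arrays, 8 passed through the control group only and 8 through the TGF-β group only. At an adjusted p under 0.05, limma called 0 members, against 58 (3.98%) of all miRNAs tested, of which 38 were higher (2.61%) and 20 lower (1.37%). The smallest adjusted p of a member was 0.202. At an unadjusted p under 0.05 there were 5 members, compared with 200 (13.7%) of all miRNAs tested, and the methods' t-test gave 4 members before and 0 after adjustment. Among the 168 5p arms of the range, 143 were tested and 0 called, with 4 at an unadjusted p under 0.05 in limma. Among the reference mirtrons, 21 were tested and 0 called by limma, with 0 at an unadjusted p under 0.05.

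Over the 97 members detected on all arrays, a set in which no group decided who passed, the median log2 fold change was 0.012 with quartiles of -0.11 and 0.12, compared with a median of -0.020 and quartiles of -0.14 and 0.13 over all 1282 such miRNAs. In 51 of them the TGF-β mean was above the control mean and in 46 below. The 3 arrays of one group lay apart from the 3 of the other for 7 of the 97, where 18.6% of all miRNAs detected on all arrays did so. Among the 113 tested members this held for 13, where 18.9% of all tested did so. That count includes 16 members that passed through 1 group only, where the same arrays decided who passed. The 95% interval of the log2 fold change lay wholly between -1 and 1 for 88 of the 97, and its median half-width was 0.488, compared with 0.354 for all 1282.

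**Figure D4:**
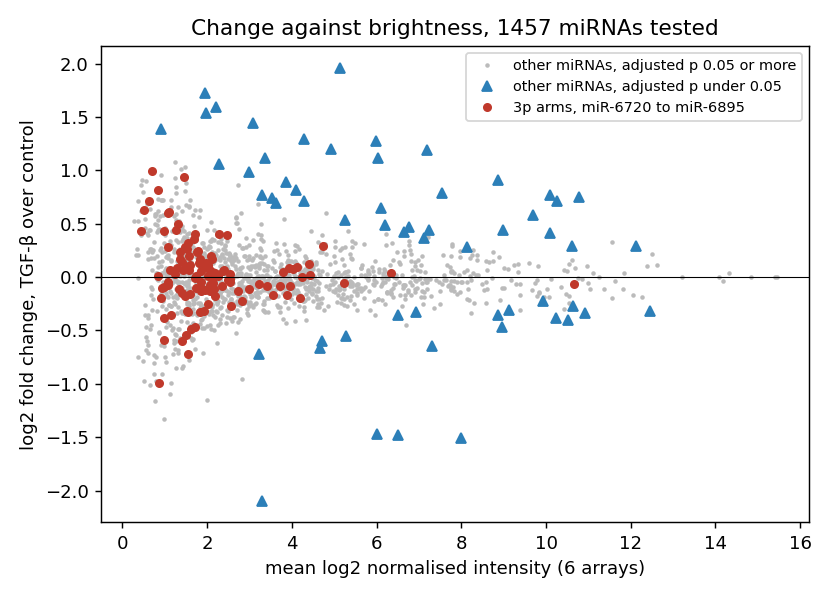
Log2 fold change of TGF-β over control against the mean log2 normalised intensity, for the 1457 miRNAs tested, with the 113 tested members as circles and the 58 miRNAs called by limma as triangles. No circle is a called miRNA, and the members lie mostly below a mean of 3.

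Among the members detected on all arrays with groups apart, the largest positive differences were those of miR-6804-3p, miR-6825-3p and miR-6786-3p. miR-6804-3p gave 2.94, 3.48 and 2.25 without TGF-β and 4.04, 3.67 and 3.61 with it, and limma put its log2 fold change at 0.41 with a standard error of 0.23 (adjusted p = 0.491). Without control replicate 3 it was 0.23. miR-6825-3p gave 3.61, 4.51 and 4.64 without TGF-β and 5.47, 4.84 and 6.56 with it (log2 fold change 0.40 with a standard error of 0.19, limma adjusted p = 0.409). For miR-6786-3p, whose host HGS encodes an endosomal sorting protein, the control arrays gave 2.80, 2.92 and 2.78 and the TGF-β arrays 4.13, 2.94 and 3.93, so that TGF-β replicate 2 lay close to the control arrays. All values of these 3 were between the 48.7th and the 69.6th percentile of the array. With the local background of each spot, removed by normexp with no offset, the log2 fold changes were 0.057 for miR-6804-3p, 9.73e-05 for miR-6825-3p and 0.098 for miR-6786-3p.

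The largest negative differences of the same kind were those of miR-6797-3p, miR-6727-3p and miR-6848-3p. miR-6797-3p, whose host RPS19 encodes a ribosomal protein, gave 3.40, 1.99 and 2.07 without TGF-β and 1.65, 1.63 and 1.53 with it, and limma put the log2 fold change at -0.59 with a standard error of 0.32 (adjusted p = 0.456). The control mean rested on replicate 1, and the log2 fold change was -0.34 without that array. miR-6727-3p, whose host INTS11 encodes the endonuclease of the Integrator complex, gave 3.56, 3.15 and 4.97 without TGF-β and 3.00, 2.56 and 2.77 with it, with a log2 fold change of -0.46, which was -0.28 without control replicate 3. For miR-6848-3p the control arrays gave 4.20, 3.67 and 4.17 and the TGF-β arrays 3.14, 3.20 and 3.25 (log2 fold change -0.33 with a standard error of 0.19, limma adjusted p = 0.514). With normexp on the local background and no offset, miR-6797-3p was at -0.056, miR-6727-3p at 0.012 and miR-6848-3p at 0.046.

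Of the 8 brightest members, miR-6805-3p alone had groups apart. It gave 22.0, 25.7 and 24.6 without TGF-β, or 24.1 ± 1.88 (SD, n = 3), and 28.6, 28.4 and 31.8 with it, or 29.6 ± 1.93 (SD, n = 3). Its log2 fold change was 0.30 (95% interval 0.05 to 0.54), with an unadjusted p of 0.0227 and an adjusted p of 0.244 from limma. With normexp on the local background and no offset it was 0.046. For miR-6765-3p the log2 fold change was -0.06 (95% interval -0.21 to 0.09, limma adjusted p = 0.791), with -0.125 without TGF-β replicate 2 and -0.0038 without TGF-β replicate 1. For miR-6840-3p it was 0.04 (-0.15 to 0.23, limma adjusted p = 0.904). Both signs turned with normexp on the local background and no offset, to 1.03 for miR-6765-3p and -0.13 for miR-6840-3p. The other 5 had log2 fold changes between -0.19 (miR-6816-3p) and 0.12 (miR-6763-3p). With each array left out, miR-6816-3p went from -0.31 (without TGF-β replicate 1) to -0.13, and miR-6763-3p from 0.068 (without TGF-β replicate 2) to 0.23 (without TGF-β replicate 1). In these 5 the groups overlapped.

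**Figure D5:**
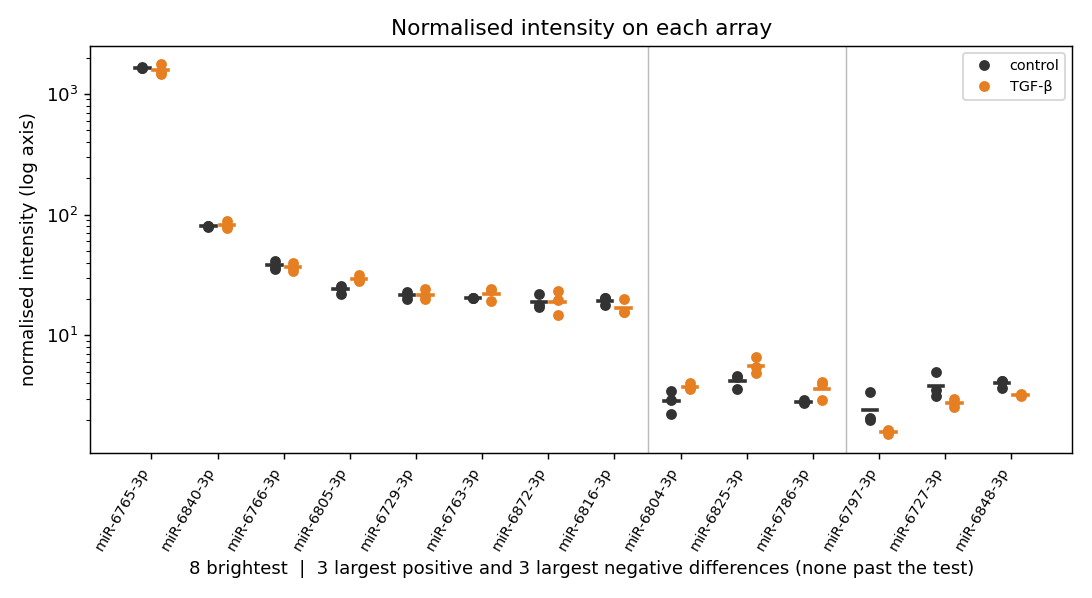
Normalised intensity (log axis) on the 3 control and the 3 TGF-β arrays for the 8 brightest members and the 6 members with the largest differences among those detected on all arrays with groups apart; points are arrays and bars are the means of log2 values. miR-6765-3p lies between 1465 and 1755, and the 6 members on the right all lie below 7.

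The other 4 members with an unadjusted p under 0.05 were miR-6753-3p, miR-6783-3p, miR-6821-3p and miR-6779-3p, which are named here after their values were seen. miR-6753-3p, whose host TCIRG1 encodes a subunit of the vacuolar proton pump, gave 1.80, 1.36 and 3.09 without TGF-β and 3.81, 3.05 and 4.57 with it. Its groups overlapped, and limma put the log2 fold change at 0.94 with a standard error of 0.33 (adjusted p = 0.202). With normexp on the local background and no offset it was 0.033. In miR-6783-3p and miR-6779-3p, 1 control array and all 3 TGF-β arrays were above the detection limit, with log2 fold changes of 0.99 and 0.81. In miR-6821-3p all 3 control arrays and TGF-β replicate 2 were, with a log2 fold change of -0.99. These 3 passed the filter only through the group where they were higher, and their values at the floor of 1 unit have no order, so the size of the fold changes depends on that floor.

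Detection split by group for 1 member. miR-6876-3p was not detected on any control array (0.907 to 1.90 blank SDs above the blank mean) and was detected on every TGF-β array (2.26 to 2.91 blank SDs). It was tested only because all TGF-β arrays detected it. Its normalised intensities were 1.42, 1.11 and 1 without TGF-β and 1.61, 1.37 and 1.75 with it, so that the groups overlapped, and the adjusted p was 0.711 from limma. Over all 2565 miRNA probes, detection on every TGF-β array and no control array was found for 10 and the reverse for 1.

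The arms of a precursor were compared in their response. In the 83 precursors with both arms detected on all arrays, the 3p and the 5p arm had the same sign of log2 fold change in 46. The correlation of the changes of both arms was -0.0079 (Spearman 0.055), over precursors that share the 6 arrays. No 5p partner of a member was called at an adjusted p under 0.05 in limma. In 4 of the 5 pairs of members that share a seed both were tested, and no difference within a pair was tested. The log2 fold changes were 0.11 for miR-6819-3p and 0.13 for miR-6877-3p. They were 0.09 for miR-6801-3p and -0.13 for miR-6810-3p. miR-6791-3p was at -0.014 and its partner miR-6829-3p at -0.60, and miR-6784-3p was at -0.027 and its partner miR-6862-3p at -0.72. Both miR-6829-3p and miR-6862-3p passed the detection filter through the control group only, and TGF-β replicate 1 was their lowest array (1.27 and 1.17). The smallest adjusted p of these 8 was 0.446 from limma.

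The label of the cells was read against miRNAs known from other tissues. miR-21-5p, abundant in most cancer cell lines, had a normalised intensity of 19282 to 20713. The acinar miR-216b-5p and miR-217 were detected on no array and the acinar miR-216a-5p on 2. Of the endocrine miRNAs, miR-375 was detected on 1 array and miR-7-5p on all 6, at 309 to 438. Of 6 epithelial miRNAs, miR-200a-3p and miR-200b-3p were detected on all arrays, at 3.57 to 8.15, miR-429 on 3, miR-200c-3p and miR-205-5p on 1 each and miR-141-3p on none. Of 5 blood cell miRNAs, miR-142-3p was detected on every array, at 1.41 to 6.56, miR-451a on 5 arrays, miR-223-3p on 4, miR-144-3p on 3 and miR-142-5p on 2. The liver miR-122-5p was detected on 3. All 4 skeletal muscle miRNAs were detected on every array. Of these, miR-1-3p (133 to 457), miR-133a-3p and miR-133b were lower after TGF-β, with log2 fold changes of -1.51, -1.47 and -1.48 (the largest adjusted p of the 3 was 3.62e-05 from limma), while miR-206 (3.28 to 6.30) had one of 0.046 (limma adjusted p = 0.978). Their part in the members' values was not tested.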

How the data were processed

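Panc-1 RNA was measured on 6 Toray 3D-Gene miRNA arrays, 3 of control and 3 of TGF-β-treated cells. The authors deposited, array by array, linear scanner intensities (the median over each spot and over its surroundings) from which no background had been removed. The deposited table of processed intensities holds blank-subtracted values, scaled per array on its detected miRNAs. Its cells were empty for the same miRNAs and arrays as those not detected here, with 0 disagreements.

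Here the trimmed blank mean was subtracted, the 2565 miRNA probes were quantile normalised between arrays, values were floored at 1 unit and compared as log2 values with lmFit and eBayes (trend) of limma 3.58.1 in R 4.3.3, with Benjamini-Hochberg adjustment over the 1457 miRNAs tested. Over the 6 arrays, 3 miRNA spots were flagged and left out, and none was a member. The blank spots were used because an earlier report on these data stated that the local background rises with the signal of the spot itself. Around miR-6765-3p the local background was 0.246 to 1.00 of the spot's intensity, depending on the array. Figures were drawn with matplotlib 3.10.9 in Python 3.11.15. The number of arrays limits the precision.

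Named members were all members called, the 3 largest differences each way with groups apart, the 8 brightest, the 3 smallest and 3 largest SDs, members detected in only one group and members whose 5p partner was called. The members and lists were chosen with earlier results of these data known. The alternatives were other backgrounds, scalings, floors, filters, detection limits and tests, the processed values, a block for the replicate number, and leaving out each array. The agreement without miR-6765-3p and by brightness, and the fits that separate the local background from the offset, were added after seeing the values. Sequences and positions were taken from RefSeq GRCh38.p14. The array files name no genome build.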

Additional observations from a re-analysis of the deposited data

How the results depend on the processing

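No member was called at an adjusted p under 0.05 by limma, or by the methods' t-test, in any of the 25 alternatives, with 1 to 12 members at an unadjusted p under 0.05 and a smallest adjusted p between 0.0530 (without control replicate 3) and 0.991 (local background by normexp with no offset). Between 95 and 146 members were detected (114 to 119 with each array left out). The median log2 fold change of the members was 0.015 and became 0.16 in the deposited values, where that of all miRNAs tested was 0.11. It was -0.048 to 0.061 with each array left out. Of the 113 tested members, 16 had passed the detection filter through 1 group only. The number of members with groups apart, 13 of 113 against 18.9% of all miRNAs, became 6 with the local background by normexp, with an offset of 50 or with none (all 7.15%), 7 of 97 when detection on all arrays was required (all 18.6%) and 5 of 97 in the deposited values (all 12.2%). It was 19 to 33 with each array left out, where 26.3% to 31.2% of all miRNAs lay apart, since fewer arrays overlap less. With the signal minus its local background the median percentile of the members was 48.3, compared with 52.1. With normexp and the offset of 50, the median correlation between arrays was 0.981, with single pairs from 0.00597 to 0.997 and a median of 0.739 once miR-6765-3p was left out. Leaving it out of the main values, which was chosen after seeing the data, gave a median of 0.933, compared with 0.960. The cause was not tested.

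The replicate number also left 0 members called when used as a block in limma, with 5 at an unadjusted p under 0.05 and 61 miRNAs called in all, compared with 58. Over all miRNAs, limma called 0 with normexp on the local background with an offset of 50 and 0 with no offset, 53 with the blank spots and an offset of 50, 35 without normalisation, 20 without a filter, 31 with detection on at least 1 array, 31 in the deposited values and 31 without the trend, the methods' t-test called 17, and limma called 26 to 51 with each array left out. Deviations of same-numbered arrays correlated at 0.13, 0.11 and -0.027 over 1282 miRNAs, so the numbers were not taken as pairs.

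Normexp on the local background was run with an offset of 50 and with none. An offset by itself shrinks the log2 fold changes of dim members: added to the blank-subtracted values, it took miR-6804-3p from 0.41 to 0.024. The last 2 fits were chosen after seeing the data. With normexp the sign turned, at an offset of 50 and at none, for miR-6765-3p (0.57 and 1.03), miR-6840-3p (-0.11 and -0.13), miR-6729-3p (-0.023 and -0.055), miR-6763-3p (-0.014 and -0.036), miR-6872-3p (-0.018 and -0.048), miR-6727-3p (0.0037 and 0.012), miR-6848-3p (0.015 and 0.046) and miR-6821-3p (0.0071 and 0.022). In the deposited values it turned for miR-6765-3p (0.095), miR-6766-3p (0.11) and miR-6821-3p (0.14), the last over the 4 arrays with a value. Median scaling turned miR-6766-3p (0.013), 75th percentile scaling miR-6729-3p (-0.0031) and miR-6872-3p (-0.032), and no normalisation miR-6872-3p (-0.015). With each array left out, miR-6766-3p lay between -0.11 and 0.0089, miR-6729-3p between -0.051 and 0.078, miR-6872-3p between -0.15 and 0.18 and miR-6840-3p between -0.019 and 0.092. miR-6804-3p, miR-6825-3p, miR-6786-3p, miR-6797-3p, miR-6805-3p, miR-6816-3p and miR-6753-3p had the same sign in all 25 alternatives, with values of -0.20 to 0.098 under normexp with no offset. With a floor of 2 units miR-6876-3p gave no value. Low signals limit most members.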
